A study of Mus musculus with 15 samples.

Results

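The genes described here are 10 immediate early genes, namely *Fos*, *Fosb*, *Jun*, *Junb*, *Jund*, *Egr1*, *Egr2*, *Egr3*, *Atf3* and *Ier2*, measured by RNA sequencing in brain myeloid cells of mice. They were chosen by name, and all 10 were found, each as 1 of the 38924 gene rows of the deposited files. The mice were wild-type male C57BL/6J, 12 months old, and were fed either a control chow diet (CD) or a western diet (WD) that began at 2 months. From each brain, cells carrying CD11b, an integrin of myeloid cells, were sorted by surface CD45, the common leukocyte antigen, into CD11b+CD45lo cells, the level of resident microglia, and CD11b+CD45hi cells, the level of other leukocytes. This gave 4 libraries each of CD CD45hi, CD CD45lo and WD CD45lo cells and 3 libraries of WD CD45hi cells. Both fractions are sorted by gates and not pure cell types, and they came from brain tissue freed of olfactory bulb and cerebellum.

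Immediate early genes are transcribed within minutes of a stimulus, without new protein synthesis, because the factors that drive them are already present in the cell. Growth factor, calcium, cytokine and stress signals reach them through MAP kinases and through factors bound at their promoters. Fos and Jun proteins pair into AP-1, a dimer that binds DNA and switches on later genes, and Egr proteins are zinc finger factors that do the same at other sites. In microglia and macrophages these genes are known to respond to inflammatory signals, and also to tissue dissociation and warming, so that isolated cells can carry an induction that the living tissue did not have. All 15 libraries went through the same isolation, which included an enzymatic digestion at body temperature, and no unprocessed tissue was analysed here. Expression present in the brain and expression induced during isolation therefore cannot be told apart in these values.

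Promoter sequences are shown for 4 members chosen after the search because they hold a short element that signal-responsive factors are known to bind. RefSeq promoter records for GRCm38.p6 covered 7 of the 10 genes, *Egr1*, *Egr3* and *Ier2* being the others. Of the 3 members searched and not shown, *Junb* had matches to TATAAA and CCAAT alone, and *Fosb* and *Jund* had none of the elements searched. Each stretch gives the 150 bases before an annotated start, 5′ to 3′ on the strand of the gene, with the matched elements in capitals. The positions are chr12:85473740-85473889 on the plus strand for *Fos*, chr4:95052223-95052372 on the minus strand for *Jun*, chr10:67537719-67537868 on the plus strand for *Egr2* and chr1:191183334-191183483 on the minus strand for *Atf3*.
Fos: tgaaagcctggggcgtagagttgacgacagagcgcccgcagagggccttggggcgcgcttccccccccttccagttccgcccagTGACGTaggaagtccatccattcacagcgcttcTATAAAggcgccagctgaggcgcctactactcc
Jun: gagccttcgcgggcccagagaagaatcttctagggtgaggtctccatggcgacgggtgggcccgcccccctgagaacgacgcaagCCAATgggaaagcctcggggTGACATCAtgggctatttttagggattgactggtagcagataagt
Egr2: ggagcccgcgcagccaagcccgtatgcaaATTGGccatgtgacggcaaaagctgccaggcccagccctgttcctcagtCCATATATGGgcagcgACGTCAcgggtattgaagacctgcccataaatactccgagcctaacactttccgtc
Atf3: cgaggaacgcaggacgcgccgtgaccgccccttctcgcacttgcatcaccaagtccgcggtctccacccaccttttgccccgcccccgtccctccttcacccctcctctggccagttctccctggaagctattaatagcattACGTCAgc

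In *Fos* the capitals mark TGACGT, the core of the cAMP response element to which CREB and ATF proteins bind, and the TATA box TATAAA. In *Jun* they mark CCAAT and TGACATCA, the variant AP-1 element of this promoter. In *Egr2* they mark a CArG box, the site of serum response factor, ACGTCA, which is the same CREB core read on the other strand, and ATTGG, which is CCAAT on the other strand. In *Atf3* they mark that core again. Both strands of the window from 250 bases before to 50 bases after each start were searched, for these elements and for the full response element TGACGTCA, the AP-1 element TGANTCA and the Egr element GCGTGGGCG. Of all 32851 promoter windows 7.51% held TGACGT, 3.62% TGACATCA, 1.63% a CArG box, 13.6% TATAAA, 37.4% CCAAT, 1.79% TGACGTCA, 7.81% TGANTCA and 0.612% GCGTGGGCG. The *Fos* and *Jun* stretches lie directly before the annotated genes, with *Jun* crossed by a transcript of the antisense gene *Junos*. The *Egr2* stretch lies in an intron of 2 longer *Egr2* transcripts, and the *Atf3* stretch lies in a longer *Atf3* transcript and shares its last 7 bases with an exon. A match of letters is a description of the sequence and not a measurement of binding.

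The libraries held between 11951412 and 17912272 expected counts, so that 3 counts corresponded to between 0.156 and 0.282 cpm, the unit of counts scaled to a common library size with TMM factors. Floors given from counts cover counting error only, since reads without molecular identifiers are not independent molecules. The 95% intervals of fold changes come from the fit and include the spread between libraries. The study describes its deposited counts as belonging to single animals, while the labels name no animal, and p-values measure only the spread between these samples. The defining microglia markers summed to between 15890 and 20450 cpm in the CD45lo libraries and to between 7766 and 9366 cpm in the CD45hi libraries, so the CD45hi fraction also held a large microglial signal. Along the second principal component of all genes, 1 CD CD45hi library (replicate 4) and 1 WD CD45hi library (replicate 1) stood apart, and counts of members called between cell types are given with and without them.

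Per transcript length (TPM), *Jun* and *Egr1* had the highest mean levels of the 10 genes in each of the 4 groups. Mean *Jun* was 507 TPM in CD CD45hi, 572 in CD CD45lo, 488 in WD CD45hi and 594 in WD CD45lo cells. Mean *Egr1* was 515, 416, 552 and 497 TPM in the same order of groups, so that *Egr1* led in CD45hi and *Jun* in CD45lo cells, with overlapping ranges between them in each group. These levels placed both among the 251 most abundant of the 14967 genes tested. *Fos* followed, at 365 and 329 TPM in CD45hi and at 235 and 221 TPM in CD45lo cells of CD- and WD-fed mice.

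*Atf3* held the fourth place in each group, between 158 and 252 TPM, and *Fosb* the fifth, between 111 and 169 TPM. The ranges of *Fos* and *Atf3* overlapped in 3 groups and were separate in WD CD45hi cells, as were those of *Atf3* and *Fosb*. *Junb* had between 62.1 and 112 TPM and *Egr2* between 50.3 and 112 TPM, with overlapping ranges in each group. The *Egr2* level is uncertain on this scale, because its effective length differed between libraries from 612 to 2437 bases as the estimated share of its transcripts changed. *Ier2* lay between 21.2 and 63.1 TPM, above *Jund* in CD45hi and below it in CD45lo cells. *Jund* lay between 24.4 and 29.5 TPM. *Egr3* was the lowest in each group, between 0.80 and 2.84 TPM and between 1 and 58 counts per library.

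**Figure D1:**
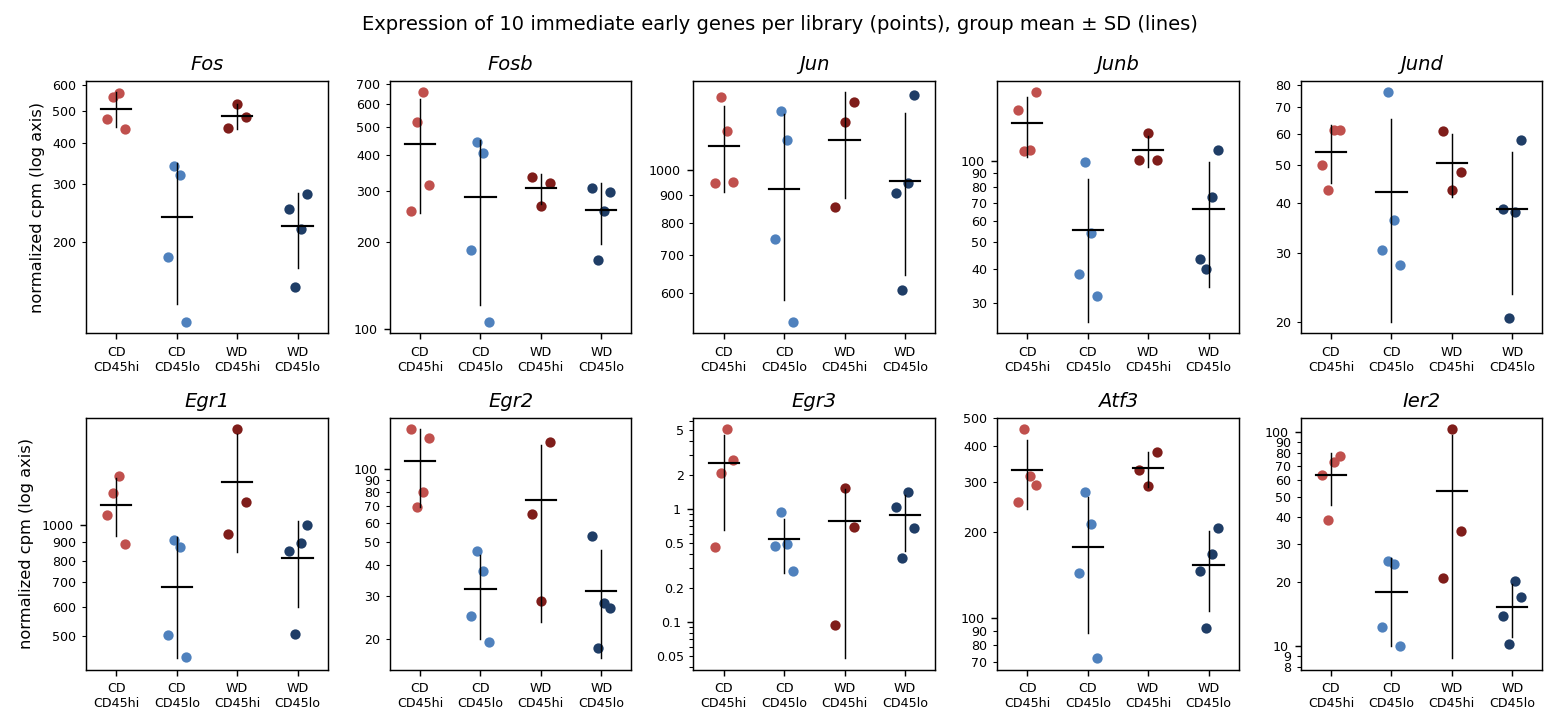
Normalized cpm of each gene (vertical log axes, not starting at 0) in the 15 libraries, by diet and CD45 level, with lines for the group mean ± SD where the lower end is above 0. *Fos* and *Ier2* show separate CD45hi and CD45lo libraries on both diets, and *Jun* libraries of the 4 groups overlap.

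The comparison of CD45hi with CD45lo cells asked which genes differ between the fractions in mice of the same diet. In CD-fed mice the fitted difference was positive for 10 of the 10 genes, with a median log2 fold change of 0.999 beside 0.036 over all genes tested. In WD-fed mice it was positive for 9 of the 10, with a median of 0.70 beside 0. The test required a difference above 1.5-fold at an FDR below 0.05, and in neither diet did any of the 10 pass it (edgeR glmTreat), where 3.98% of all genes passed in CD-fed and 5.18% in WD-fed mice. Against a null of no change (edgeR quasi-likelihood F test), *Fos*, *Junb*, *Egr2* and *Ier2* passed in CD-fed mice and *Fos* and *Ier2* in WD-fed mice, each higher in CD45hi cells, 4 and 2 of 10 where 5.95% and 6.22% of all genes passed in that direction. Unadjusted, 4 members on each diet had a p under 0.05 in the 1.5-fold test, and the share of all genes at that level is not given here. DESeq2 and limma-voom with the same fold called 0 members. Without both CD45hi libraries that stood apart, 0 of 10 passed the 1.5-fold test in CD-fed mice and 1 of 10, *Ier2*, passed in WD-fed mice. Of all genes, 4.24% and 7.03% passed then. Leaving out single libraries let up to 2 members pass in CD-fed mice (*Egr2* and *Ier2*, without WD CD45hi replicate 2) and 1 in WD-fed mice (*Ier2*, without WD CD45hi replicate 1). In those fits 4.54% of all genes passed in CD-fed and 5.12% in WD-fed mice. In bulk samples such as these, fewer cells of a type and less RNA per cell cannot be told apart.

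*Fos* encodes the partner that most often joins Jun in AP-1. In CD-fed mice it had 474, 554, 569 and 441 cpm in CD45hi replicates 1 to 4 and 179, 340, 320 and 114 cpm in CD45lo replicates 1 to 4. In WD-fed mice it had 444, 527 and 480 cpm in CD45hi and 251, 145, 218 and 279 cpm in CD45lo cells. The 7 CD45hi libraries stayed within a narrow band, and each lay above the 8 CD45lo libraries. The fold change was 2.14 in CD-fed mice (log2 1.10, SE 0.275, FDR 0.15 against 1.5-fold and 0.0187 against no change) and 2.17 in WD-fed mice (log2 1.12, SE 0.292, FDR 0.134 and 0.0213).

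*Fosb*, a close relative of *Fos* whose shorter splice form is known to accumulate with repeated stimulation, passed neither test on either diet, and its difference from *Fos* was not tested. Its CD45hi libraries had 255, 517, 656 and 315 cpm in CD-fed mice, and its CD45lo libraries 186, 442, 406 and 106 cpm, so the groups overlapped. The log2 fold change was 0.61 (95% interval -0.17 to 1.39) in CD-fed and 0.25 (-0.59 to 1.09) in WD-fed mice, and in WD-fed mice it turned to -0.07 without TMM scaling.

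Of the Jun family, *Junb* had the larger differences. This AP-1 subunit often restrains Jun activity in resting cells and is induced by cytokines in myeloid cells. In CD-fed mice it had 154, 109, 109 and 178 cpm in CD45hi cells and 38.2, 98.5, 54.0 and 31.7 cpm in CD45lo cells, without overlap (fold 2.47, log2 1.31, SE 0.361, FDR 0.135 against 1.5-fold and 0.0334 against no change). In WD-fed mice the CD45hi libraries had 101, 126 and 101 cpm and the CD45lo libraries 43.5, 39.9, 73.3 and 110 cpm. There 1 CD45lo library (replicate 4) lay among the CD45hi libraries, and the log2 fold change of 0.71 (-0.09 to 1.52) passed neither test.

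*Jun*, the central AP-1 subunit, had 945, 1350, 1176 and 951 cpm in CD CD45hi and 751, 1274, 1130 and 532 cpm in CD CD45lo cells. Its log2 fold changes were 0.26 (-0.28 to 0.81) and, in WD-fed mice, 0.25 (-0.34 to 0.83). The groups overlapped on both diets, and without TMM scaling the WD value was -0.07. *Jund*, which is known as the constitutively expressed member of the family, had log2 fold changes of 0.34 (-0.41 to 1.08) and 0.39 (-0.41 to 1.19). Leaving out TMM moved the median of all genes to -0.199 in CD-fed and -0.316 in WD-fed mice, and on the TPM scale the ratio of CD45hi to CD45lo means was below 1 for *Jun* and *Jund* on both diets (log2 -0.18 and -0.11 in CD-fed, -0.28 and -0.13 in WD-fed mice) and for *Fosb* and *Egr3* in WD-fed mice (-0.29 and -0.74). The median gene of at least 1 TPM was at -0.35 in CD-fed and -0.45 in WD-fed mice on that scale.

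Among the Egr genes, *Egr2*, which macrophages use in their differentiation and alternative activation, had the larger difference where counts were ample. In CD-fed mice CD45hi cells had 145, 69.2, 80.5 and 134 cpm and CD45lo cells 24.7, 46.1, 38.1 and 19.5 cpm, without overlap (fold 3.34, log2 1.74, SE 0.444, FDR 0.0734 against 1.5-fold and 0.0207 against no change). In WD-fed mice CD45hi replicates had 64.9, 28.7 and 129 cpm and CD45lo replicates 52.7, 18.3, 27.9 and 26.8 cpm. The groups overlapped there, and the log2 fold change was 1.24 (0.26 to 2.22, FDR 0.239 and 0.109). *Egr1*, the family's widely used marker of activity, had 1070, 1228, 1365 and 891 cpm in CD CD45hi and 502, 913, 871 and 438 cpm in CD CD45lo cells. Its log2 fold changes were 0.74 (0.19 to 1.30, FDR 0.104 against no change) and, in WD-fed mice, 0.69 (0.09 to 1.28, FDR 0.141), with overlapping libraries on both diets. *Egr3* had log2 fold changes of 2.23 (0.00 to 4.45) and -0.18 (-2.50 to 2.15), and these low counts leave its direction undetermined in WD-fed mice.

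*Atf3* encodes a stress-induced factor that damps inflammatory transcription in macrophages. It had 254, 459, 314 and 293 cpm in CD CD45hi and 144, 276, 214 and 72.0 cpm in CD CD45lo cells, where 1 CD45lo library (replicate 2) exceeded the lowest CD45hi library. In WD-fed mice it had 330, 289 and 383 cpm in CD45hi and 146, 91.9, 168 and 207 cpm in CD45lo cells, without overlap. The log2 fold changes were 0.90 (0.21 to 1.59, FDR 0.41 against 1.5-fold and 0.109 against no change) and 1.12 (0.39 to 1.86, FDR 0.187 and 0.052).

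*Ier2*, an early response gene of less defined function, had the largest fold change of the 10 in WD-fed mice. In CD-fed mice it had 63.2, 38.8, 72.6 and 77.3 cpm in CD45hi and 12.2, 25, 24.2 and 10.04 cpm in CD45lo cells (fold 3.52, log2 1.82, SE 0.468, FDR 0.0746 against 1.5-fold and 0.0218 against no change). In WD-fed mice it had 20.9, 104 and 34.7 cpm in CD45hi and 13.8, 10.2, 20.2 and 16.9 cpm in CD45lo cells (fold 3.48, log2 1.80, SE 0.491, FDR 0.082 and 0.0276). The CD45hi libraries lay above the CD45lo libraries on both diets, although in WD-fed mice the lowest CD45hi library was only just above the highest CD45lo library.

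Counted together, the CD45hi libraries lay above the CD45lo libraries without overlap for 4 of 10 members in CD-fed mice, where 8.26% of all genes did, and for 3 of 10 (*Fos*, *Atf3* and *Ier2*) in WD-fed mice, where 10% of all genes did. The fractions also differed in cell content. The summed levels of border macrophage markers were between 830 and 2877 cpm in CD45hi and between 68.5 and 253 cpm in CD45lo libraries. Those of monocyte markers were between 509 and 1138 cpm against between 31.0 and 146 cpm. Neutrophil markers summed to between 1455 and 4021 cpm against between 646 and 1312 cpm. Among them, *Csf3r* was high in both fractions, with means of 729.5 against 551 cpm in CD-fed and 649 against 684 cpm in WD-fed mice. *S100a9* had means of 946.5 against 84.8 cpm and 400 against 37.2 cpm in the same order. The fitted difference was positive for 10 of 10 neutrophil markers in CD-fed and 9 of 10 in WD-fed mice. Dendritic cell markers summed to between 122 and 297 cpm against between 18.8 and 35.7 cpm. Lymphocyte and NK markers summed to between 10.9 and 156 cpm against between 0 and 0.571 cpm. The share of mitochondrial counts was between 17.7% and 20.5% in CD45hi and between 7.99% and 10.9% in CD45lo libraries, and genes with at least 1 count numbered between 14072 and 15477 against between 16004 and 17864. These cell types and library properties move with each of the differences above, and their part in them was not tested.

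**Figure D2:**
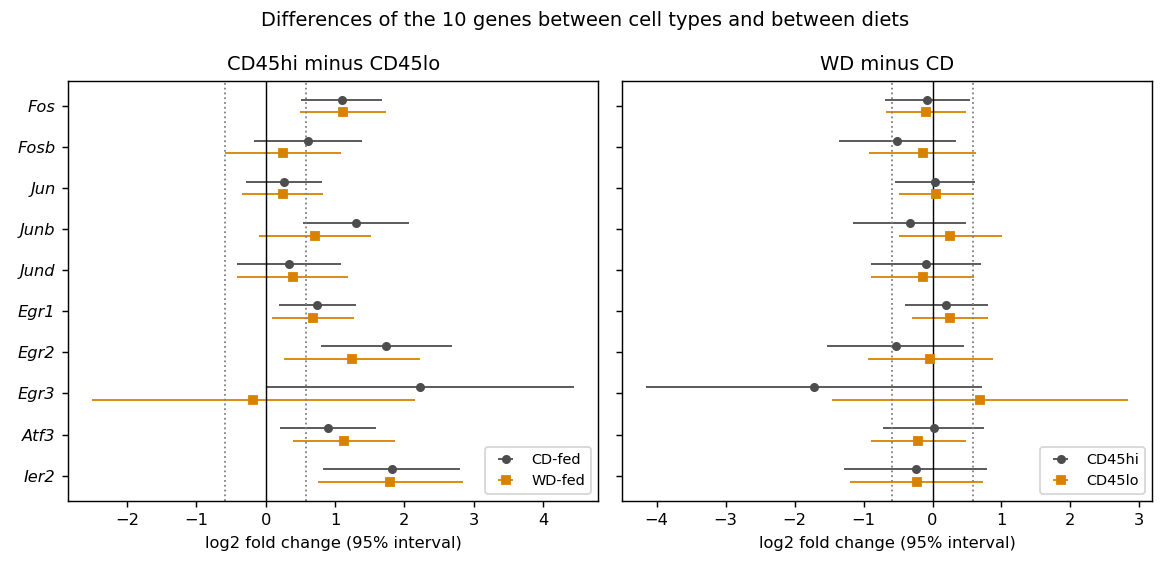
Log2 fold change of each gene with its 95% interval, CD45hi minus CD45lo on the left (circles CD-fed, squares WD-fed mice) and WD minus CD on the right (circles CD45hi, squares CD45lo cells), with dotted lines at 1.5-fold. Intervals of *Fos*, *Egr1*, *Egr2*, *Atf3* and *Ier2* lie above 0 on both diets on the left, and all 20 intervals on the right include 0.

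The comparison of WD with CD asked what the diet does within a fraction. None of the 10 genes passed in CD45hi cells, where 0.254% of all genes passed, or in CD45lo cells, where 0% did (edgeR quasi-likelihood F test), and no member had an unadjusted p under 0.05. Unadjusted, 17.6% of all genes in CD45hi and 0.822% in CD45lo cells had one. In CD45hi cells the log2 fold changes lay between -0.53 (*Egr2*, 95% interval -1.53 to 0.46) and 0.20 (*Egr1*, -0.40 to 0.80), apart from *Egr3* at -1.72 (-4.15 to 0.72). In CD45lo cells they lay between -0.23 (*Ier2*, -1.19 to 0.73) and 0.26 (*Junb*, -0.49 to 1.01), apart from *Egr3* at 0.69 (-1.46 to 2.84). The libraries of the diets overlapped for each gene in both fractions, where 5.77% of all genes in CD45hi and 2.42% in CD45lo cells did not overlap.

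*Jun* had one of the tighter diet intervals, from -0.55 to 0.62 in CD45hi and from -0.49 to 0.60 in CD45lo cells, and *Fos* had -0.69 to 0.55 and -0.67 to 0.48. A diet difference of 2-fold in either direction lies outside those intervals, while the intervals of *Junb*, *Ier2* and *Egr3* in both fractions and of *Fosb* and *Egr2* in CD45hi cells allow it. The interaction, which compares the CD45 difference between diets, passed for 0 of 10 members, with FDR from 0.643 to 1, where 0.00668% of all genes passed and 10.1% had an unadjusted p under 0.05. Markers of neurons and other brain cells summed to between 119 and 137 cpm in WD CD45hi libraries and to between 47.3 and 74.0 cpm in CD CD45hi libraries, and their part in the diet comparison was not tested.

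Within a group, the members spread differently in the fractions. In CD45lo cells, the SD of log2 cpm around the group means was 0.603 for *Fos*, 0.743 for *Fosb*, 0.529 for *Jun*, 0.699 for *Junb*, 0.636 for *Jund* and 0.693 for *Atf3*. In CD45hi cells the same genes had SDs of 0.158, 0.499, 0.287, 0.301, 0.249 and 0.309. The median gene of at least 10 cpm ran the other way, with an SD of 0.264 in CD45lo and 0.691 in CD45hi cells. Of 8253 such genes 6.58% had the larger SD in CD45lo cells, and of the 9 members at that level 7 had, *Egr2* and *Ier2* being the exceptions. Without both CD45hi libraries that stood apart the median SD in CD45hi cells was 0.589, 13.2% of genes had the larger SD in CD45lo cells, and 7 of the 9 members still had. Without WD CD45hi replicate 2, 9 of the 9 had. *Fos* was at percentile 93.4 of these genes for its spread in CD45lo cells and at percentile 1.16 in CD45hi cells.

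**Figure D3:**
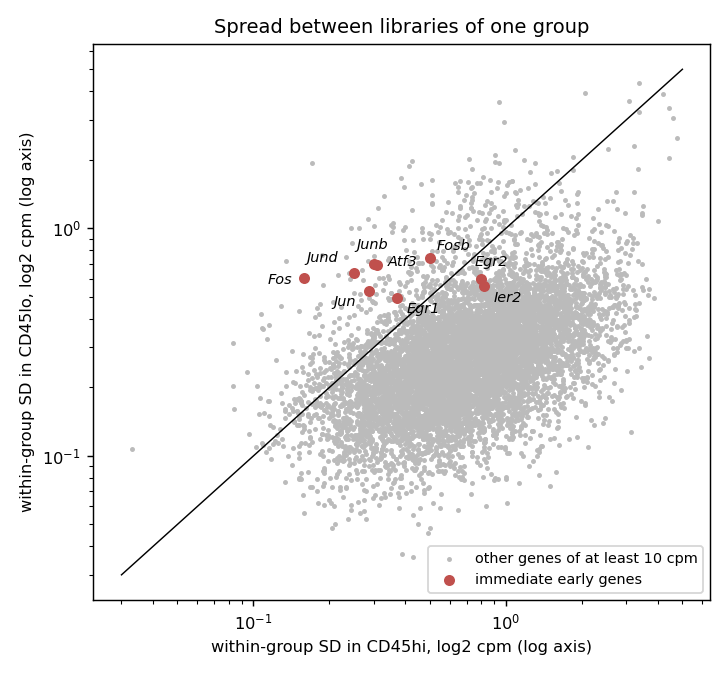
Within-group SD of log2 cpm in CD45hi cells (horizontal, 7 libraries) against CD45lo cells (vertical, 8 libraries), both log axes, for the genes of at least 10 cpm, with a line of equality. Most grey genes lie under the line, and 7 of the 9 labelled immediate early genes lie above it.

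The spread in CD45lo cells was shared between the members. CD45lo replicates 2 and 3 of CD-fed mice were on the high side and replicates 1 and 4 on the low side of their group for 8 of the 9 better measured genes, *Jund* in replicate 3 being the exception. Replicate 2 of WD-fed mice was below its group mean for each of the 9 genes. As a mean of standardized deviations over members, CD CD45lo replicates 1 to 4 had scores of -0.53, 1.27, 0.62 and -1.36, and WD CD45lo replicates 1 to 4 had 0.18, -1.15, 0.28 and 0.69. The CD45hi libraries had scores from -0.44 to 0.33. In CD45lo cells the members together took 0.376% of counts in the highest library and 0.15% in the lowest, both of CD-fed mice.

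Across the 8 CD45lo libraries, after the group means were removed, Pearson's r was positive for 45 of the 45 pairs of members, from 0.408 (*Junb* and *Egr2*) to 0.987 (*Fos* and *Fosb*), with a median of 0.83. Across the 7 CD45hi libraries it was positive for 23 of 45 pairs, from -0.873 (*Fosb* and *Junb*) to 0.875 (*Fos* and *Egr1*), with a median of 0.075. With any 1 CD45lo library left out, 45 of 45 pairs stayed positive in CD45lo cells, with a lowest r of 0.149 and medians from 0.761 to 0.917. These are descriptions over few libraries, and each pair shares the same libraries, depth and scaling. Total expected counts were 15723634, 17912272, 15100700 and 15868659 in CD CD45lo replicates 1 to 4 and 13783254, 12236929, 16741176 and 12177630 in WD CD45lo replicates 1 to 4, and the part of depth in the shared spread was not tested.

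**Figure D4:**
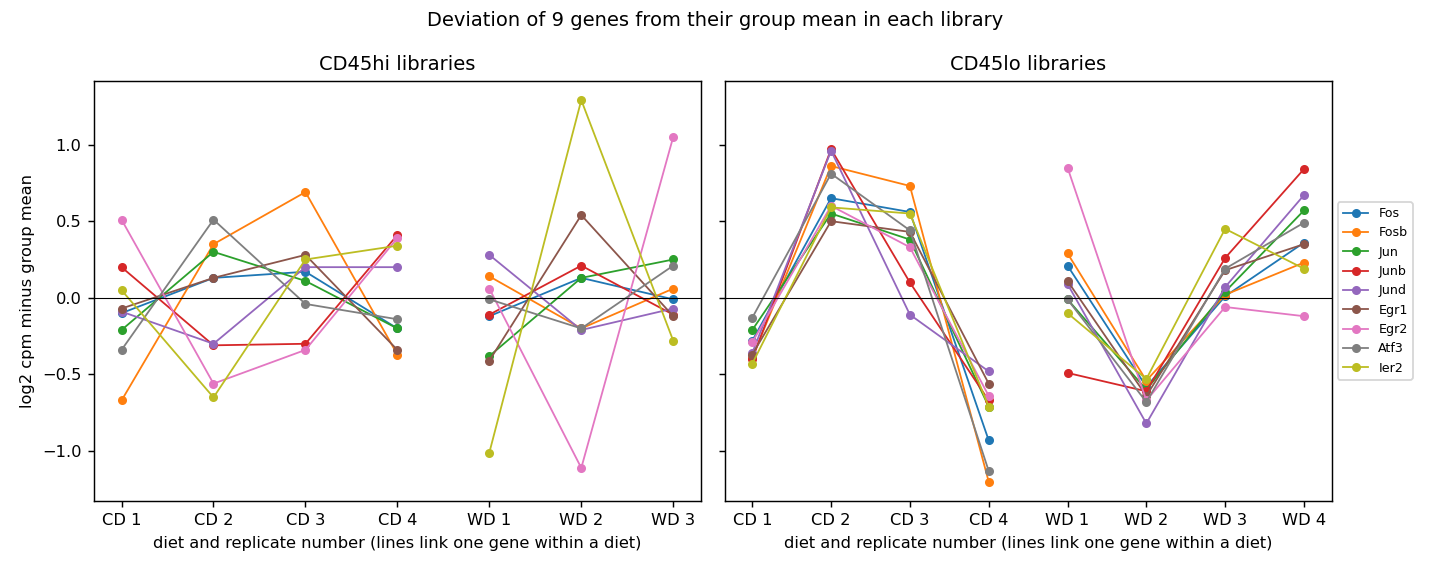
Log2 cpm minus the group mean for 9 genes (*Egr3* left out for its low counts) in each library, CD45hi on the left and CD45lo on the right, with lines joining one gene within a diet for reading only. In CD45lo cells the lines run together, with CD replicate 4 and WD replicate 2 low, whereas in CD45hi cells they cross.

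The other genes most like the members were sought over the 8244 genes of at least 10 cpm, by Pearson's r over 15 libraries between a gene's deviations from its group means and the members' score. The leading ones were *Ppp1r15a* at 0.94, which encodes the stress-induced phosphatase subunit GADD34, *Zfp36* at 0.929, which encodes the mRNA decay factor tristetraprolin, *H2-Q10* at 0.929, *Atf4* at 0.913, the transcription factor of the integrated stress response, and *Vamp2* at 0.903. *H2-Q10* shares reads with other class I genes and is uncertain. Of these, 4 were also among the first 5 by Spearman's rho, namely *Zfp36* (0.918), *Atf4* (0.868), *Ppp1r15a* (0.854) and *Vamp2* (0.839).

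Lists of pathway genes gave the same measure. The median r was 0.661 for 11 feedback regulators (10 positive), 0.564 for 16 other immediate early genes (16 positive) and 0.428 for 11 heat shock genes (11 positive). It was 0.23 for 8 early secreted and surface targets (6 positive), 0.212 for 6 other AP-1 and Maf genes (4 positive), 0.072 for 20 upstream kinases and factors (15 positive) and -0.01 over all genes compared. In CD45lo cells alone, *Btg1* (0.984), *Klf2* (0.964), *Dusp1* (0.964), a MAP kinase phosphatase, and *Klf6* (0.955) were chosen after their values were seen as close followers. *Il1b*, an inflammatory cytokine gene and also named after its values were seen, ran opposite to the score. Its r was -0.744 over 15 libraries and -0.808 over the 8 CD45lo libraries. Other early secreted and surface targets ran with the score over 15 libraries, namely *Ccl3* (0.80), *Tnf* (0.634), *Ccl4* (0.482) and *Il1a* (0.46). *Ptgs2* had -0.511, *Cxcl2* 0 and *Plaur* 0.001. Summed heat shock levels of CD CD45lo replicates 1 to 4 were 3565, 3615, 4576 and 2752 cpm. The lowest was in the library with the lowest score. Monocyte markers summed to 44.5, 55.7, 39.8 and 104 cpm in these libraries. In WD CD45lo replicates 1 to 4 they summed to 38.2, 146, 75.8 and 31.0 cpm. Border macrophage markers summed to 117, 122, 136 and 253 cpm and to 68.5, 162, 150 and 81.7 cpm in the same order. Their median r over 15 libraries was -0.457 for 8 monocyte (1 positive) and 0.007 for 7 border macrophage markers (4 positive). The part of heat shock levels and of cell content in the members' spread was not tested.

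Between the fractions, several early response genes outside the 10 had larger differences than the members. Of 11 other AP-1 and Maf genes tested, 1 passed the 1.5-fold test on each diet, where 3.98% of all genes passed in CD-fed and 5.18% in WD-fed mice. The gene was *Fosl2*, a Fos relative, with 270 against 30.4 cpm in CD-fed mice (log2 3.15, SE 0.314, FDR 1.61e-05) and 175 against 30.01 cpm in WD-fed mice (log2 2.54, SE 0.319, FDR 2.41e-04).

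Of 20 other immediate early genes tested, 8 rose in CD45hi cells of CD-fed and 6 in those of WD-fed mice, and none fell, where 3.39% and 4.01% of all genes rose, with median log2 fold changes of 1.08 and 0.94. *Nr4a1*, an orphan nuclear receptor also known as a marker of patrolling monocytes, had 176 against 9.76 cpm in CD-fed mice (log2 4.17, FDR 8.5e-07) and 193 against 7.93 cpm in WD-fed mice (log2 4.60, FDR 6.05e-07). *Sik1*, a salt-inducible kinase, had log2 fold changes of 5.54 (FDR 2e-05) and 4.435 (FDR 1.57e-04). *Ier3*, a survival factor, had 1.90 (FDR 0.00162) and 1.69 (FDR 0.00707).

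Of 16 feedback regulators tested, 6 rose in CD-fed and 7 in WD-fed mice, and none fell. Of all genes, 3.39% and 4.01% rose. *Nfkbiz* and *Nfkbia* encode proteins of the IkappaB family, which regulates NF-kappaB. Their log2 fold changes were 1.99 (FDR 5.62e-05) and 1.65 (FDR 0.00434) in CD-fed mice. In WD-fed mice they were 2.18 (FDR 2.59e-05) and 2.16 (FDR 4.06e-04). *Tnfaip3*, an editor of ubiquitin chains that ends NF-kappaB signalling, had 1.47 (FDR 0.00216) and 1.53 (FDR 0.00209). *Dusp5*, another MAP kinase phosphatase, was at or below 3 counts in each CD45lo library. Against a floor of 3 counts per library, its CD45hi mean was at least 36.3-fold higher in CD-fed and at least 41.4-fold higher in WD-fed mice. Single CD45hi libraries had between 3.78 and 11.3 cpm in CD-fed and between 1.275 and 19.75 cpm in WD-fed mice.

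Of 12 early secreted and surface targets, 6 rose in CD-fed and 5 in WD-fed mice, and none fell, where 3.39% and 4.01% of all genes rose. *Il1b* had 749 against 12.9 cpm in CD-fed and 483 against 8.03 cpm in WD-fed mice (log2 5.86 and 5.91, FDR 1.26e-07 and 2.1e-07). The chemokine gene *Cxcl2* had log2 fold changes of 6.63 and 7.11 (FDR 3.43e-06 and 3.13e-06), and *Ptgs2*, the inducible prostaglandin synthase, 5.27 and 5.97 (FDR 0.00136 and 7.42e-04). *Plaur*, the urokinase receptor, had 2.59 and 2.97 (FDR 0.00355 and 0.00142).

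Of 22 upstream kinases and factors, including the MAP kinases and serum response factor, 0 passed on either diet (edgeR glmTreat), with medians of 0.052 and -0.098. Against no change 2 were higher in CD-fed mice and 1 was lower in WD-fed mice, and 3 and 2 had an unadjusted p under 0.05 in the 1.5-fold test. Against no change, 5.95% of all genes were higher in CD-fed mice and 434 of 14967 were lower in WD-fed mice. Of 12 heat shock genes 0 passed on either diet by either test, with medians of 0.233 and 0.557 and with 1 and 3 unadjusted. For the unadjusted counts of both lists the share of all genes is not given here. DESeq2 and limma-voom with the same fold also called 0 of these 2 lists. The diet comparisons called 0 of the 93 tested genes of these 6 lists in both fractions (edgeR quasi-likelihood F test). Of all genes they called 0.254% in CD45hi and 0% in CD45lo cells. An unadjusted p under 0.05 was found for 11 of the 93 in CD45hi and 1 in CD45lo cells. Of all genes, 17.6% and 0.822% had one.

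**Figure D5:**
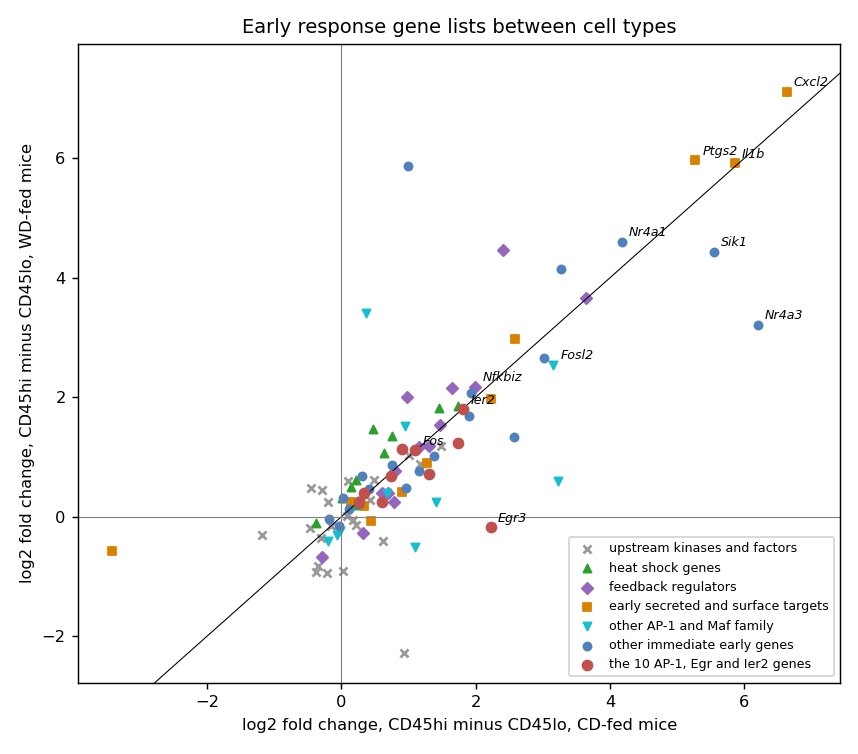
Log2 fold change CD45hi minus CD45lo in CD-fed mice (horizontal) against WD-fed mice (vertical) for the members and 6 lists of early response genes, leaving out genes under 1 cpm in the compared groups and those at or below 3 counts in the CD45lo libraries. The members lie near the line of equality between 0 and 2 apart from *Egr3*, while *Fosl2*, *Nr4a1*, *Sik1*, *Il1b* and *Cxcl2* lie further out.

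Counting could affect some members. *Jun* had fractional expected counts in 11 libraries and *Jund* in 5, while the counts of the other 8 were whole. The library kit does not mark strand, and *Jun*, *Jund*, *Junb* and *Atf3* overlap genes on the opposite strand (*Junos* by 689 bases, Gm11175 by 919, *Prdx2* by 351 and Gm24748 by 108), whose reads in the shared bases cannot be told apart from theirs.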

How the data were processed

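Sorted cells were lysed directly, RNA was poly(A)-selected and libraries were sequenced as paired ends. The authors processed reads with bcl2fastq 2.18.0.12 and RSEM 1.2.12 on mm10 (annotation release not given in the sources used here), per the labels, and deposited per library an expected count and a TPM for each gene. Here expected counts were rounded, and a minimum of 1 cpm reached by no fewer than 2 libraries left 14967 of 38924 genes. All 15 libraries were fitted with 4 groups after TMM scaling in edgeR 4.0.16 (R 4.3.3), with its legacy quasi-likelihood. The newer edgeR 4 quasi-likelihood fit served as an alternative. CD45hi was compared with CD45lo by glmTreat at 1.5-fold, and diets and the interaction by the quasi-likelihood F test, with Benjamini-Hochberg FDR over all genes and a threshold of 0.05. SE was the log2 fold change over the root of F. TPM served for levels and their ratios, with no test. No 2 libraries held identical values. The members and lists were chosen with earlier results of these data known.

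Named besides the members were, per list and CD45 comparison, up to 4 genes past the threshold with the lowest FDR, and the 5 genes most like the members, with exceptions marked in the text. *Atf7* and *Mafg* had 2 rows each and were left out, as was 1 monocyte marker with no row. Alternatives were DESeq2 1.42.0, limma-voom 3.58.1, other filters, scalings and tests, and leaving out libraries. The procedure was tested on simulated counts with known 4-fold changes. Sequencing used 2 instrument models, and which library ran on which is not given in the sources used here, so no within-instrument value could be computed.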

Additional observations from a re-analysis of the deposited data

How the results depend on the processing

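The CD45 comparisons called 0 of 10 members as reported. In CD-fed mice the test against no change called 4, fitting the compared groups alone called 2 and the edgeR 4 quasi-likelihood fit called 2 (*Egr2* and *Ier2* in both). Of all genes, these called 8.03%, 4.15% and 5.49% in either direction. In WD-fed mice the test against no change called 2, and leaving out both CD45hi libraries that stood apart, chosen after seeing the data, called 1. Of all genes, these called 9.12% and 7.03% in either direction. Leaving out each library in turn called between 0 and 2 members in CD-fed mice and between 0 and 1 in WD-fed mice. The 2 in CD-fed mice (*Egr2* and *Ier2*) came without WD CD45hi replicate 2, and 1 came without CD CD45lo replicate 2 (*Junb*), WD CD45hi replicate 1 (*Ier2*) or WD CD45hi replicate 3 (*Egr2*), while the 1 in WD-fed mice (*Ier2*) came without WD CD45hi replicate 1. Those CD-fed fits called 4.54%, 2.77%, 4.75% and 4.6% of all genes, in the order given, and the WD-fed fit called 5.12%. DESeq2, limma-voom, other size factors, other filters and unrounded counts called 0 members in both. Limma-voom called 4 other immediate early genes on each diet, against 8 and 6 as reported. It called 3.62% of all genes in CD-fed and 4% in WD-fed mice. The diet comparisons and the interaction called 0 members under each alternative. Over all genes, WD against CD in CD45hi cells called 38 as reported, 1030 with DESeq2, 252 with the edgeR 4 fit, 290 without both libraries, 69 with the stricter filter, 60 without TMM, 1 at 1.5-fold, 0 with those groups alone and between 1 and 286 with 1 library left out. The interaction called 1 as reported and 188 with DESeq2.

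Directions turned where values were small. Limma-voom gave *Fosb* 0.05 between diets in CD45lo cells. Without both libraries, *Egr3* became 0.33 between fractions in WD-fed mice, and *Atf3* -0.03 and *Ier2* 0.25 between diets in CD45hi cells. Without TMM, also chosen after seeing the data, *Fosb* and *Jun* became -0.07 between fractions in WD-fed mice, and *Jun* -0.04 and *Atf3* -0.06 between diets in CD45hi cells. Leaving out each library gave, in WD minus CD log2 values of CD45hi cells, *Atf3* -0.09 to 0.22, *Egr1* -0.12 to 0.39, *Ier2* -1.18 to 0.14, *Jun* -0.09 to 0.20 and *Jund* -0.24 to 0.01. In CD45lo cells it gave *Atf3* -0.46 to 0.09, *Egr2* -0.40 to 0.19, *Fos* -0.33 to 0.12, *Fosb* -0.42 to 0.14, *Jun* -0.17 to 0.24, *Junb* -0.09 to 0.68 and *Jund* -0.40 to 0.29. Between fractions in WD-fed mice *Egr3* ranged from -1.14 to 0.34. The cause was not tested.

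Same-numbered CD45hi and CD45lo libraries of CD-fed mice had r over genes from 0.01 to 0.069. Libraries of unlike number had -0.052 to 0.046 there. In WD-fed mice the same-numbered pairs had -0.022 to -0.004 and those of unlike number -0.017 to 0.013. These r were small, and whether same-numbered libraries came from the same mouse was not tested. File numbers differ from title numbers for WD-fed mice and gave r from 0 to 0.013 there, with members' scores of -0.439 and -1.148, 0.26 and 0.278, and 0.179 and 0.691 in the CD45hi and CD45lo libraries of these 3 pairs. With the number as a replicate block in the same edgeR test, by either numbering, 0 members were called, and over all genes 398 by title number and 353 by file number were called between fractions in WD-fed mice, against 775 without it. A block within diet could not be fitted for the diet comparisons, since each number lies within 1 diet.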
